A study of Mus musculus with 10 samples.

Results

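DNA replication and mitotic cell cycle genes were followed across colonic organoids that differed in genotype and drug. The set was a list of 50 genes in 2 classes, 28 of S phase and 22 of mitosis, and each gene was found by its symbol in the platform annotation. A gene counted as measured when a probe set carried its symbol alone, and where a gene had several such probe sets the brightest on average was used. In this way 42 of the 50 genes were measured, among 18820 genes with a symbol of their own on the array: 24 of S phase and 18 of mitosis. Of the others, Gins2, Tyms, Rfc4, Ccne2, Kif20a, Nusap1 and Foxm1 lay only on probe sets that carried several symbols, and Ccnb1 was not listed.

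The organoids are epithelial cultures grown in Matrigel from crypts of the mouse colon, in a medium with Wnt, Noggin, R-spondin and EGF. They came from 3 male homozygous PparγΔIEC mice (KO) and 3 wild-type littermates (WT) on a C57BL/6J background. In the KO mice loxP sites flank exons 1 and 2 of Pparg and the villin promoter drives Cre, so that the deletion is aimed at the intestinal epithelium. Rosiglitazone is an agonist of PPARγ, a transcription factor that binds fatty acids. The 4 groups were KO rosiglitazone (3 arrays: mouse 46 as replicate 1, mouse 45 as 2, mouse 44 as 3), KO vehicle (2 arrays, mice 46 and 44), WT rosiglitazone (3 arrays: mouse 48 as replicate 1, mouse 42 as 2, mouse 47 as 3) and WT vehicle (2 arrays, mice 42 and 47). Rosiglitazone was given at 1 µM and the vehicle was 0.1% DMSO, each for 24 h. Mice 45 and 48 gave an array with rosiglitazone only, and the labels give no ages.

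S-phase genes load and fire replication origins, copy DNA and make its building blocks, and E2F factors switch many of them on when a cell commits to division. Mitotic genes condense chromosomes, build the spindle, check that chromosomes are attached and drive their separation. Many are switched on late in the cycle through promoter elements named CHR and CCAAT. In the colon, dividing cells are the stem and progenitor cells low in the crypt, and both classes are shut down as cells differentiate. In RNA from whole organoids, fewer dividing cells and less RNA per dividing cell cannot be told apart.

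The promoters of both classes showed this division of motifs, and 6 are printed here because they belong to genes described below and hold the motif of their class. Windows ran from 250 bases before to 50 after the start of each gene (RefSeq, GRCm38.p6), and 23 S-phase and 17 mitotic genes of the list had one. The E2F motif was searched as TTTGGCGC, TTTCGCGC, TTTCCCGC or TTTGCCGC, the CHR as TTTGAA and the CCAAT box as CCAAT, each on both strands. Neighbouring matches can overlap, as 2 E2F matches do in Mcm5. An E2F motif was present in 10 of 23 S-phase genes (43.5%) and 1 of 17 mitotic genes (5.88%), against 2.61% of all 27025 genes with a window. The CHR motif was present in 3 of 23 S-phase genes (13.0%) and 12 of 17 mitotic genes (70.6%), against 20.2% of all genes. All 12 of those mitotic genes also held a CCAAT box (70.6%), against 8.97% of all genes for this pair. The genes were not chosen by their promoters, but E2F and CHR regulation is part of what these classes are known for. The stretches below are the 250 bases before the start, read along the gene from 5′ to 3′, with matches to the 3 motifs in capitals. They come from chr11:98907901-98908150 (plus strand) for Cdc6, chr5:151651209-151651458 (minus strand) for Rfc3, chrX:93632156-93632405 (minus strand) for Pola1, chr7:135716380-135716629 (minus strand) for Mki67, chr9:70421555-70421804 (minus strand) for Ccnb2 and chr10:69352913-69353162 (minus strand) for Cdk1.
Cdc6: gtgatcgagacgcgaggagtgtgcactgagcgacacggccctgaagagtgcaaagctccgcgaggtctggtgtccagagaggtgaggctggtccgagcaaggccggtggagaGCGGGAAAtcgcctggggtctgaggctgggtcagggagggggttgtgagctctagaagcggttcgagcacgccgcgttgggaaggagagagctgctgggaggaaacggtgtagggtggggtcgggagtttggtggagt
Rfc3: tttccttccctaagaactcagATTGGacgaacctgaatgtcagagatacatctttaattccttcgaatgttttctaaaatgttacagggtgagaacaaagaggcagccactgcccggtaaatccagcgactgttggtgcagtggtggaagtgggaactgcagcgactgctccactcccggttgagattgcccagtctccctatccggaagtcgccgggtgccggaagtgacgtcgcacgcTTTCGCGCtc
Pola1: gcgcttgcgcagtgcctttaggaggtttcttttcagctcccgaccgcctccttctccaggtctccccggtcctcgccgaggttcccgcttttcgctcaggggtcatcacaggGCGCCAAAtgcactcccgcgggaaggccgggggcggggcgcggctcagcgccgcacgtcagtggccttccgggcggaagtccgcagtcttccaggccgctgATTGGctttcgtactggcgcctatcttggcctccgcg
Mki67: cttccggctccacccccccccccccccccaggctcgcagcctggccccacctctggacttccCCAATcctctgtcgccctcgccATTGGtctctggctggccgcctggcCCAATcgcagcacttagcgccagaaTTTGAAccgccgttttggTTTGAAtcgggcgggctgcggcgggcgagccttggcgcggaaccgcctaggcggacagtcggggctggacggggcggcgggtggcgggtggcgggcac
Ccnb2: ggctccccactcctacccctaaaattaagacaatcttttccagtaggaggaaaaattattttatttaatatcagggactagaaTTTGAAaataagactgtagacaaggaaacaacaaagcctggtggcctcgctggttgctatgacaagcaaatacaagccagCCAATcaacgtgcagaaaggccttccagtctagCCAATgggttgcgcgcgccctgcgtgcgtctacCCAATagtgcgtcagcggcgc
Cdk1: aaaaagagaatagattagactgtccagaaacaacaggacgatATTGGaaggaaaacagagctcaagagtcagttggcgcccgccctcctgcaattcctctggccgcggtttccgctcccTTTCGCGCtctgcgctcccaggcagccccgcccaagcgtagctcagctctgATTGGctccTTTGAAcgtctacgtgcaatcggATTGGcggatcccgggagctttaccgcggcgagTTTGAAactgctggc

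The stretch of Cdc6 held the E2F motif as GCGGGAAA, 138 bases before the start, and that of Pola1 held it as GCGCCAAA, also 138 bases before the start. Rfc3 held TTTCGCGC 10 bases before the start. Mki67 held TTTGAA at 116 and at 98 bases before the start, with 3 CCAAT boxes further out, and Ccnb2 held it at 167. Cdk1 was the mitotic gene with both kinds, an E2F match at 131 bases and CHR matches at 71 and 15 bases before the start. The 2 E2F matches of Mcm3 lay 20 and 39 bases after the start, outside such a stretch. A match is a run of letters and not a measured binding site, and no measurement of binding was used here.

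Levels are RMA values on the log2 scale, in which a difference of 1 is a doubling. All 42 measured members had a mean above the median level of the probe sets tested (4.51). The dimmest was Ung at a mean of 4.83, which read 4.44 in KO vehicle replicate 2. Detection of single genes was not tested. All 9 epithelial marker genes lay above that median, none of 9 fibroblast and none of 5 endothelial markers did, and 1 of 8 immune markers did. Pparg, the targeted gene, read 8.78, 7.37 and 8.41 in KO rosiglitazone, 8.58 and 8.47 in KO vehicle, 8.30, 7.59 and 7.93 in WT rosiglitazone, and 8.35 and 8.41 in WT vehicle. The position of its probes relative to the deleted exons is not known here, so its level checks neither the deletion nor the labels, and each direction between genotypes rests on the labels.

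Some arrays stood apart. Both arrays of mouse 46 lay at -31.8 (KO rosiglitazone replicate 1) and -39.3 (KO vehicle replicate 1) on the first principal component, which held 27.4% of the variance, and the other 8 lay between -4.10 and 19.6. KO rosiglitazone replicate 2, from mouse 45, had the highest level of all 10 arrays for 15 of the 24 S-phase and 12 of the 18 mitotic members. Its 10 goblet cell markers averaged 2.47 relative to their mean over all arrays, against -1.21 in each of the 2 arrays of mouse 46. Relative to their mean, stem cell and Wnt markers averaged -0.36, 0.34 and -0.04 in KO rosiglitazone and -0.35 and 0.15 in KO vehicle. They averaged 0.14, 0.13 and -0.01 in WT rosiglitazone and -0.03 and 0.03 in WT vehicle. Within mice 6 of the 14 stem markers were higher with the drug in mouse 46 (median -0.01) and 1 in mouse 44 (median -0.19). The counts were 10 in mouse 42 (median 0.15) and 6 in mouse 47 (median -0.04). The part of these shifts in the results was not tested, and values without the arrays are given beside the counts they touch.

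**Figure D1:**
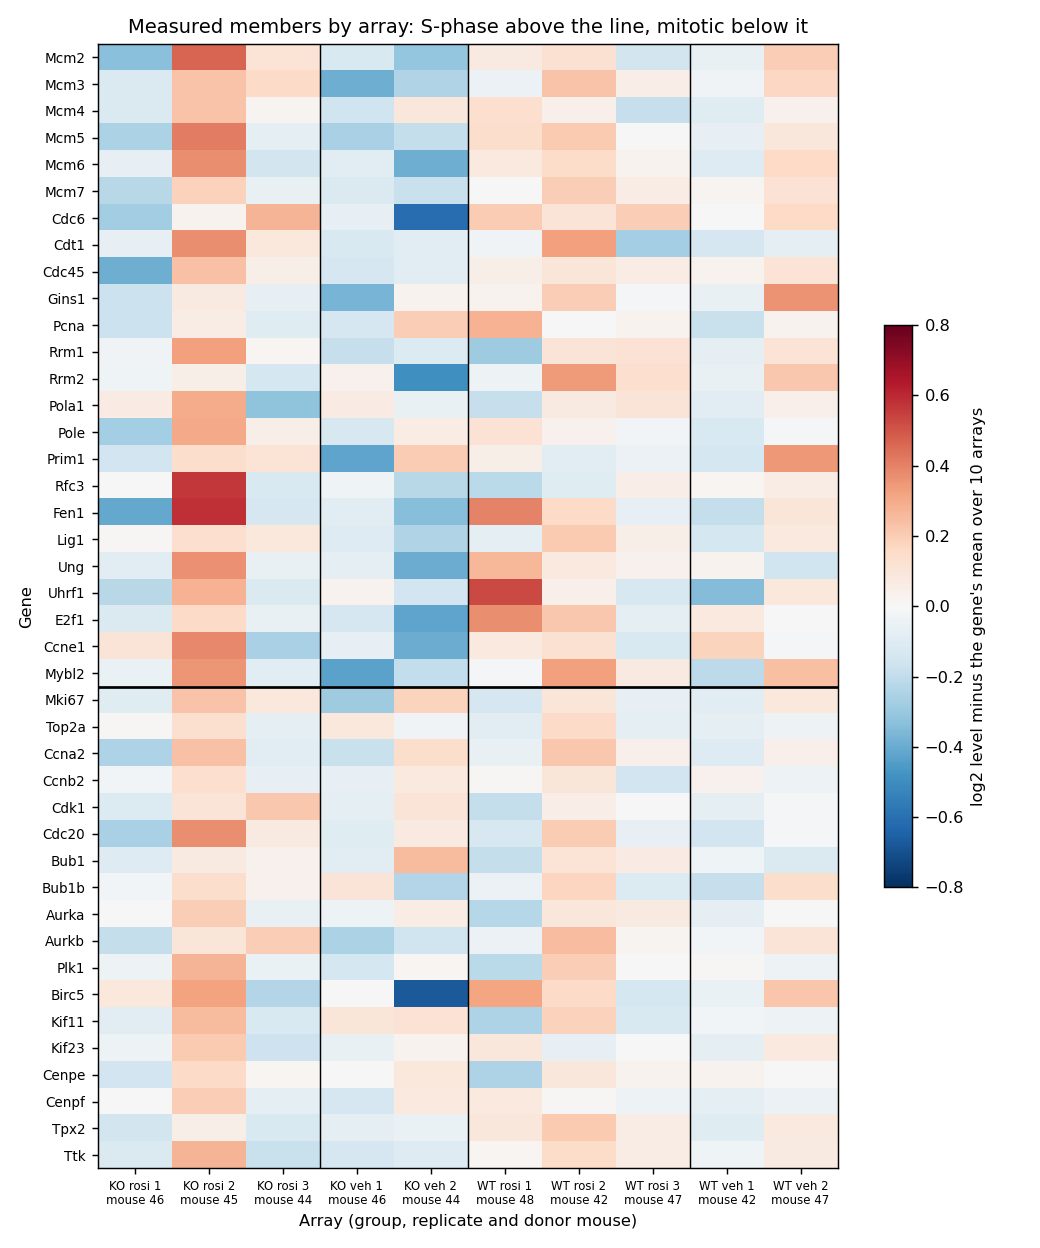
Levels of the 42 measured members (rows) in the 10 arrays (columns, grouped as KO rosiglitazone, KO vehicle, WT rosiglitazone and WT vehicle with the donor mouse below), as log2 level minus the gene's own mean over 10 arrays. The column of KO rosiglitazone 2 (mouse 45) is high in most rows of both classes, and the 2 KO vehicle columns are low in most S-phase rows and mixed in the mitotic rows.

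Averaged over each class, after centring each gene on its own mean, the S-phase level was -0.14, 0.27 and -0.03 in the KO rosiglitazone arrays and -0.15 and -0.19 in the KO vehicle arrays. It was 0.08, 0.13 and -0.00 in the WT rosiglitazone arrays and -0.07 and 0.10 in the WT vehicle arrays. The 2 KO vehicle arrays were thus the lowest of the 10 for S phase, with KO rosiglitazone replicate 1 (mouse 46) close to them. The mitotic level was -0.09, 0.19 and -0.03 in KO rosiglitazone and -0.07 and -0.00 in KO vehicle. It was -0.07, 0.13 and -0.02 in WT rosiglitazone and -0.06 and 0.03 in WT vehicle, and all 4 groups overlapped. The spread within groups, pooled over the 4 groups, was an SD of 0.14 for S phase and 0.11 for mitosis.

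The contrast of the classes within each array (S phase minus mitosis) removes a shift of the same size in both, but not a shared shift of unequal size. It averaged 0.01 ± 0.07 in KO rosiglitazone (SD, n = 3), -0.13 ± 0.08 in KO vehicle (n = 2), 0.06 ± 0.08 in WT rosiglitazone (n = 3) and 0.03 ± 0.06 in WT vehicle (n = 2). By array it was -0.05, 0.08 and -0.00 in KO rosiglitazone against -0.07 and -0.19 in KO vehicle, and 0.15, 0.00 and 0.02 in WT rosiglitazone against -0.01 and 0.08 in WT vehicle. The 2 KO vehicle arrays had the lowest contrast of the 10. The mouse 45 array, high in both classes (0.27 and 0.19), kept a contrast of 0.08. The group means differed by 0.14 between KO rosiglitazone and KO vehicle and by -0.16 between KO vehicle and WT vehicle, against a pooled SD within groups of 0.07. No p is given for this score because its genes were chosen with results of these data known. Without both arrays of mouse 46 these differences were 0.23 and -0.22, and without the mouse 45 array the first was 0.10. Without KO vehicle replicate 2 (mouse 44) they shrank to 0.08 and -0.10, so that the size of both depended on the KO vehicle arrays.

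**Figure D2:**
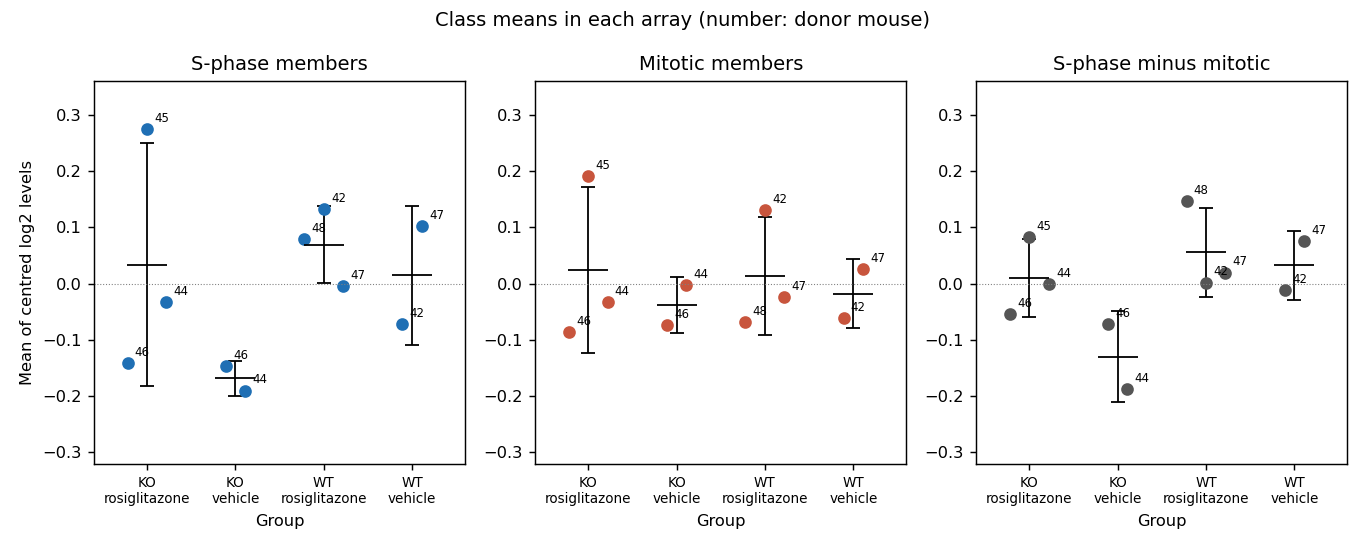
Mean of the centred log2 levels of the S-phase members (left), the mitotic members (middle) and their contrast (right) in each array, with the groups from KO rosiglitazone on the left to WT vehicle on the right. Points are arrays labelled by donor mouse, dashes are group means and bars are 1 SD (n = 3, 2, 3 and 2). The KO vehicle arrays, at -0.07 and -0.19, are the lowest in the contrast.

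Over all KO arrays nearly all S-phase genes had higher means with rosiglitazone and mitotic genes were mixed, though no single gene passed the test. Within mice the S-phase counts were smaller, 14 of 24 in mouse 46 and 18 of 24 in mouse 44. Mouse 45 has no vehicle array, so its part mixes donor and drug. Of the 24 S-phase members 23 were higher in KO rosiglitazone than in KO vehicle, with a median difference of 0.24, while 12 of 18 mitotic members were higher, with a median of 0.05. Over all 23099 probe sets tested the median was -0.01, and 46.4% were higher. No member passed limma's test at an adjusted p of 0.05, and neither did any other probe set (0% called). At an unadjusted p under 0.05 there was 1 member, Mcm3, of 42, against 3.06% of all probe sets. That count was 0 without the mouse 45 array and on the paired mice, 3 without KO vehicle replicate 1, 4 without KO rosiglitazone replicate 1 and 5 without both arrays of mouse 46. For 6 S-phase members (Mcm3, Cdt1, Rrm1, Lig1, E2f1 and Mybl2) every KO rosiglitazone array was above every KO vehicle array, against 5.81% of all probe sets, and no member lay wholly below, against 7.93%. The counts rested in large part on the mouse 45 array: without it 17 of 24 S-phase members were higher (median 0.10) and 6 of 18 mitotic members (median -0.05). Without both arrays of mouse 46 they were 21 of 24 (median 0.34) and 10 of 18 (median 0.01), and without KO vehicle replicate 1 alone 6 of 18 mitotic members were higher. Goblet cell markers were higher in 10 of 10 (median 1.47) in the same comparison, with overlapping groups for all. Within mice, where mouse 45 has no part, their median was 0.16 in mouse 46 (7 of 10 higher) and 0.61 in mouse 44 (9 of 10). The part of these markers in the result was not tested. With the donor mouse as a random block 1 probe set passed, and it was no member.

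Among S-phase genes, Mcm3, a subunit of the MCM helicase that is loaded on origins and unwinds DNA, read 7.36, 7.70 and 7.63 in KO rosiglitazone against 7.08 and 7.23 in KO vehicle. The difference of 0.41 (SE 0.15, adjusted p = 1.00 by limma) was the largest of the list, and the groups did not overlap. Mybl2, a transcription factor of late S phase that itself is an E2F target, read 7.03, 7.44 and 6.99 against 6.66 and 6.88, without overlap. Cdc6, which loads the MCM helicase at origins, read 5.07, 5.38 and 5.62 against 5.28 and 4.74. The difference was 0.38 (SE 0.19) for Mybl2 and 0.35 (SE 0.19) for Cdc6, and for Cdc6 the groups overlapped because mouse 46 read lower with the drug and mouse 44 higher. The smallest S-phase differences were those of Uhrf1, which guides maintenance of DNA methylation behind the fork, and Pola1, the catalytic subunit of DNA polymerase alpha. Uhrf1 read 6.94, 7.44 and 7.04 in KO rosiglitazone against 7.185 and 7.003 in KO vehicle (0.05, SE 0.22). Pola1 read 6.06, 6.29 and 5.68 against 6.06 and 5.94 (0.01, SE 0.18). Both sets of arrays overlapped.

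The genes in this paragraph were chosen after their values were seen. The other MCM subunits had positive differences as well, by 0.30 for Mcm2, 0.08 for Mcm4, 0.25 for Mcm5, 0.29 for Mcm6 and 0.11 for Mcm7, with overlapping arrays in all 5. Pcna, the clamp that holds polymerases on DNA, was the S-phase member that was lower (difference -0.10): its arrays read 10.60, 10.84 and 10.68 in KO rosiglitazone and 10.64 and 10.97 in KO vehicle. Its 2 probe sets gave nearly the same values in every array. Rrm1 and Rrm2, the 2 subunits of ribonucleotide reductase, differed by 0.25 and 0.19.

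Among mitotic genes the largest difference was that of Birc5 (survivin), a subunit of the chromosomal passenger complex, at 0.39 (SE 0.23, adjusted p = 1.00 by limma). Birc5 read 6.45, 6.69 and 6.13 in KO rosiglitazone against 6.37 and 5.69 in KO vehicle, and the groups overlapped. Its partner Aurkb, the kinase of that complex, read 8.92, 9.21 and 9.31 against 8.86 and 8.95 (difference 0.24, SE 0.15). Mki67, which coats mitotic chromosomes and is the usual marker of dividing cells, read 9.14, 9.46 and 9.32 against 8.95 and 9.41 (0.13, SE 0.17). The arrays of both genes overlapped. The smallest differences were those of Ccnb2, a cyclin that activates Cdk1, and Top2a, the topoisomerase that untangles sister chromatids. Ccnb2 read 10.28, 10.43 and 10.23 in KO rosiglitazone against 10.23 and 10.38 in KO vehicle (0.01, SE 0.13). Top2a read 9.01, 9.13 and 8.93 against 9.09 and 8.97 (-0.01, SE 0.13).

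**Figure D3:**
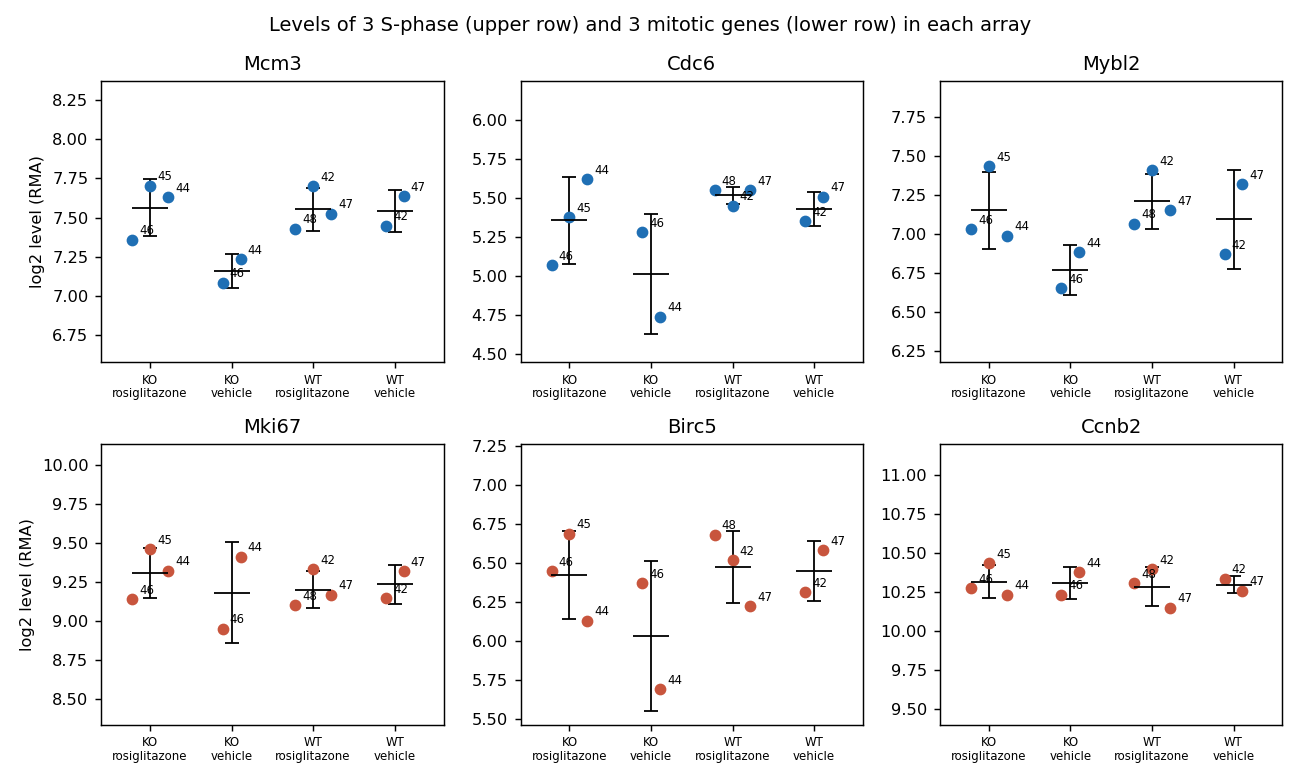
Log2 levels of Mcm3, Cdc6 and Mybl2 (S phase, upper row) and Mki67, Birc5 and Ccnb2 (mitosis, lower row) in each array, labelled by donor mouse, with groups from KO rosiglitazone on the left to WT vehicle on the right. Dashes are group means and bars are 1 SD (n = 3, 2, 3 and 2), and all panels span the same log2 range. For Mcm3 both KO vehicle arrays (7.08 and 7.23) lie below all 8 others.

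S-phase members with and without an E2F motif had the same rounded median in this comparison. The 10 measured members with an E2F motif had a median difference of 0.25 (10 of 10 higher), and the 11 with a promoter window but without the motif had 0.25 (10 of 11 higher). Of the mitotic members, the 12 with a CHR motif had a median of 0.06 (10 of 12 higher), and the 3 without it were Birc5 (0.39), Bub1 (-0.08) and Cenpe (-0.04). The difference between motif groups was not tested.

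In WT organoids most members of both classes had slightly higher values with rosiglitazone. Of the S-phase members, 18 of 24 were higher in WT rosiglitazone than in WT vehicle, with a median of 0.06, and 13 of 18 mitotic members were higher, with a median of 0.03. Over all probe sets the median was 0.01, and 54.3% were higher. No member and no other probe set was called at an adjusted p of 0.05 (0%), and no member had an unadjusted p under 0.05, against 0.991% of all probe sets. Ung (S phase) and Cenpf (mitosis) had all WT rosiglitazone arrays above all WT vehicle arrays, against 8.65% of all probe sets, and no member lay wholly below, against 6.78%. Without WT vehicle replicate 1 (mouse 42) the medians were -0.03 for S phase and -0.01 for mitosis, and without WT rosiglitazone replicate 2 (also mouse 42) they were -0.00 and -0.03, so that both medians were at or below 0 without either array of this mouse. The counts were then 10 of 24 S-phase members higher without WT vehicle replicate 1 and 7 of 18 mitotic members higher without WT rosiglitazone replicate 2. Without WT vehicle replicate 2 (mouse 47) the medians were 0.12 (22 of 24 higher) and 0.08 (14 of 18). Colonocyte markers were lower with the drug in 14 of 15 (median -0.27) and goblet markers in 9 of 10 (median -0.40), and their part in the result was not tested.

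The largest S-phase difference in WT organoids was that of Uhrf1, at 0.28 (SE 0.22, adjusted p = 1.00 by limma). It read 7.69, 7.20 and 7.03 in WT rosiglitazone against 6.81 and 7.24 in WT vehicle, and the array of mouse 48 was the highest. Fen1, the nuclease that trims Okazaki fragments, read 6.28, 6.03 and 5.81 against 5.69 and 5.98 (0.21, SE 0.26). Ung, which removes uracil from DNA, read 5.10, 4.91 and 4.87 against 4.86 and 4.67 (0.19, SE 0.17), and its groups did not overlap. The smallest differences were 0.01 (SE 0.15) for Mcm3 and 0.00 (SE 0.17) for Cdc45, a part of the active replicative helicase. Mcm3 read 7.43, 7.70 and 7.53 in WT rosiglitazone against 7.45 and 7.64 in WT vehicle. Cdc45 read 6.42, 6.48 and 6.44 against 6.41 and 6.49.

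The mitotic genes with the largest differences in WT organoids were Tpx2, which activates Aurora A on the spindle, Ccna2, a cyclin of S phase and G2, and Cdc20, an activator of the anaphase-promoting complex. Tpx2 read 7.74, 7.87 and 7.72 in WT rosiglitazone against 7.56 and 7.74 in WT vehicle (0.13, SE 0.13). Ccna2 read 9.55, 9.83 and 9.65 against 9.51 and 9.65 (0.10, SE 0.17). Cdc20 read 8.30, 8.63 and 8.36 against 8.27 and 8.41 (0.09, SE 0.19). All 3 overlapped, and in each the mouse 42 array with the drug was the highest of the WT arrays. The smallest were Kif23, a kinesin of the central spindle, and Cdk1, the kinase that drives entry into mitosis. Kif23 read 9.22, 9.07 and 9.14 against 9.05 and 9.21 (0.01, SE 0.14), and Cdk1 read 9.29, 9.53 and 9.48 against 9.41 and 9.47 (-0.00, SE 0.14).

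Set against each other, the KO response exceeded the WT response by a median of 0.15 for S-phase members (20 of 24 higher) and 0.02 for mitotic members (11 of 18 higher), against -0.03 over all probe sets. Goblet markers moved with this difference (10 of 10 higher, median 1.88, median SE 1.39). So did colonocyte markers (12 of 15 higher, median 0.54, median SE 0.55). The part of these markers in the difference was not tested. No probe set passed the test of this difference by limma (0%), and no member had an unadjusted p under 0.05, against 2.32% of all probe sets, though 2 did without KO rosiglitazone replicate 1 or without mouse 46. The largest S-phase differences of response were 0.40 for Mcm3 (SE 0.21), 0.40 for Rfc3 (SE 0.28), a subunit of the clamp loader, and 0.36 for Ccne1 (SE 0.27), the cyclin that starts S phase with Cdk2. Rfc3 read 7.03, 7.60 and 6.91 in KO rosiglitazone and 6.998 and 6.809 in KO vehicle. It read 6.82, 6.94 and 7.09 in WT rosiglitazone and 7.05 and 7.09 in WT vehicle, and the mouse 45 array stood above all 9 others. Ccne1 read 7.66, 7.94 and 7.29 in KO rosiglitazone and 7.49 and 7.15 in KO vehicle. It read 7.63, 7.67 and 7.43 in WT rosiglitazone and 7.73 and 7.54 in WT vehicle, and the arrays of each pair overlapped. The mitotic genes with the largest difference of response were Birc5 (0.37, SE 0.33), Aurkb (0.21, SE 0.22) and Mki67 (0.16, SE 0.24). The smallest were -0.01 for Pola1 and 0.02 for Fen1 in S phase, and -0.00 for Cenpf, a kinetochore protein, and 0.01 for Kif23 in mitosis. On the 4 mice with both treatments the median difference of response was 0.04 for S phase and -0.11 for mitosis. Without the mouse 45 array 13 of 24 S-phase members (median 0.07) and 6 of 18 mitotic members (median -0.07) were higher, and without KO vehicle replicate 1 there were 5 of 18 mitotic members. Centring each array on its median gave 7 of 18 mitotic members higher (median -0.02), where the median of all probe sets was -0.07. The mitotic median lay 0.05 above that of all probe sets, a distance that centring cannot change because it shifts all genes of an array alike.

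Each of 4 mice gave an array with and without the drug, which allows the difference within a mouse. With the mouse as a fixed block, and on these 8 arrays alone, limma called 0 members for the drug in KO, the drug in WT and the difference of responses. At an unadjusted p under 0.05 the KO drug count was 1 with the block and 0 on the 8 arrays, and that of the difference of responses was 0 in both. The values below are given per mouse without a further test. For S-phase members the median difference (rosiglitazone minus vehicle) was 0.01 in KO mouse 46 (14 of 24 higher), 0.13 in KO mouse 44 (18 of 24), 0.18 in WT mouse 42 (22 of 24) and -0.09 in WT mouse 47 (4 of 24). For mitotic members it was -0.00 in KO mouse 46 (9 of 18 higher), -0.07 in KO mouse 44 (4 of 18), 0.19 in WT mouse 42 (18 of 18) and -0.02 in WT mouse 47 (6 of 18). Mouse 42 thus had both classes higher with the drug, mouse 47 had most members of both lower, and mouse 44 had S-phase members mostly higher and mitotic members mostly lower. The contrast of S phase minus mitosis differed by 0.02 in mouse 46, 0.19 in mouse 44, 0.01 in mouse 42 and -0.06 in mouse 47.

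In both KO mice 10 of 24 S-phase members were higher with the drug and 2 were lower, and 2 of 18 mitotic members were higher and 7 lower. Over all probe sets 24.4% were higher in both KO mice and 25.4% lower in both. In both WT mice 4 S-phase members were higher and 2 lower, and 6 mitotic members were higher and none (0 of 18) lower, against 25.3% and 25.8% of all probe sets. Rrm1 was the member higher with the drug in all 4 mice, by 0.16 in mouse 46, 0.12 in mouse 44, 0.18 in mouse 42 and 0.01 in mouse 47. Of all 23099 probe sets 1462 were higher in all 4 mice, a larger share than 1 of 42. Mcm3 differed by 0.27 and 0.40 in KO mice 46 and 44 and by 0.25 and -0.11 in WT mice 42 and 47. Cdc6 differed by -0.21 and 0.88 in KO mice 46 and 44, values of opposite sign, and by 0.10 and 0.04 in WT mice 42 and 47.

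**Figure D4:**
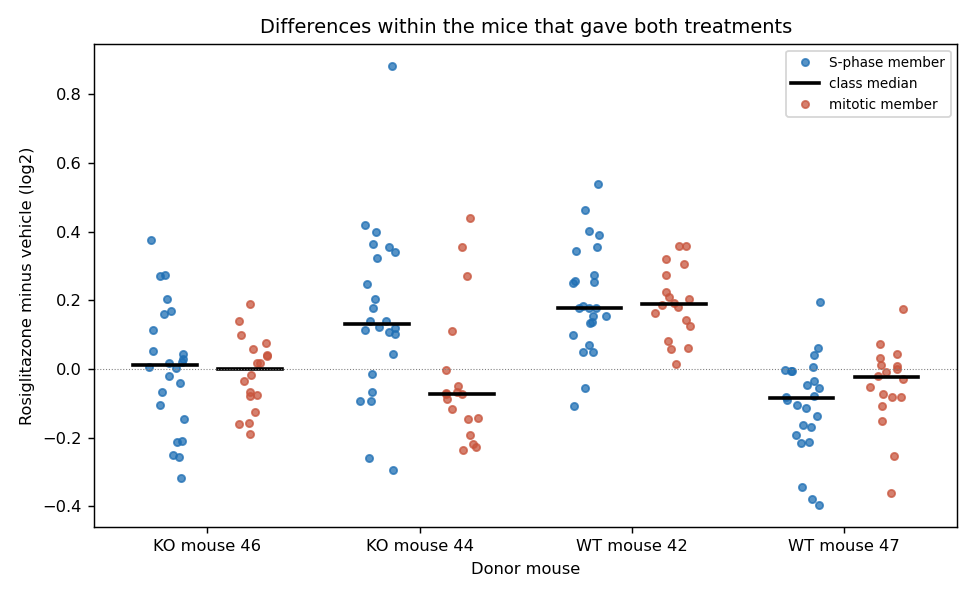
Difference of each measured member between rosiglitazone and vehicle (log2) in the 4 mice that gave both, with S-phase members at the left and mitotic members at the right of each mouse and a line at each class median. In KO mouse 44 the medians are 0.13 and -0.07, and in WT mouse 42 they are 0.18 and 0.19.

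Under vehicle most S-phase members had lower values in KO, and the mitotic members were mixed, with no test of the difference between the classes. In KO vehicle 19 of 24 S-phase members were lower than in WT vehicle, with a median of -0.20, while 10 of 18 mitotic members were higher and 8 lower, with a median of 0.01. Over all probe sets the median was 0.03. No member passed the test by limma and no probe set did (0% called), and Mcm3 was the 1 member with an unadjusted p under 0.05, against 5.69% of all probe sets. That count was 0 with the mouse as a random block, with centred arrays, without WT vehicle replicate 2 or without WT rosiglitazone replicate 3, 2 without WT vehicle replicate 1, and 3 without either KO vehicle array. With 2 arrays against 2, groups without overlap are common: 16.1% of all probe sets had both KO arrays below both WT arrays, and 23% had both above. Both KO arrays were below both WT arrays for 10 of 24 S-phase members (Mcm2, Mcm3, Mcm5, Mcm7, Cdc6, Cdc45, Rrm1, Rfc3, E2f1 and Ccne1) and 2 of 18 mitotic members (Aurkb and Ttk). Both were above for Top2a and Kif11 and for no S-phase member. Cell type markers moved in the same comparison. Goblet markers were lower in 8 of 10 (median -0.57) and general epithelial markers in 7 of 9 (median -0.11). Colonocyte markers were mixed, lower in 10 of 15 (median -0.07), with differences from -3.08 to 0.61. The part of these markers in the result was not tested. The 2 KO vehicle arrays are also those of the KO drug comparison, so that a low value in them makes the genotype difference lower and the KO drug difference higher.

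Mcm3 read 7.08 and 7.23 in KO vehicle against 7.45 and 7.64 in WT vehicle (difference -0.39, SE 0.17, adjusted p = 0.855 by limma). Cdc6 read 5.28 and 4.74 against 5.35 and 5.51 (-0.42, SE 0.21), and most of its difference lay in mouse 44. Mybl2 read 6.66 and 6.88 against 6.87 and 7.32, which overlapped (-0.33, SE 0.21). E2f1, an activator of S-phase genes chosen after its values were seen, read 7.22 and 6.94 against 7.44 and 7.36 (-0.32, SE 0.18). The smallest S-phase differences were those of Mcm4 and of Cdt1, which brings the MCM helicase to origins. Mcm4 read 7.98 and 8.22 against 8.04 and 8.17 (-0.00, SE 0.17), and Cdt1 read 7.44 and 7.47 against 7.43 and 7.48 (0.00, SE 0.20).

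The mitotic genes with the largest differences under vehicle were Birc5 (-0.42, SE 0.26), Aurkb (-0.25, SE 0.17) and Bub1 (0.16, SE 0.16), a kinase of the spindle checkpoint. Birc5 read 6.37 and 5.69 in KO vehicle against 6.31 and 6.58 in WT vehicle. Aurkb read 8.86 and 8.95 against 9.09 and 9.22, and Bub1 read 8.08 and 8.42 against 8.13 and 8.05. Aurkb was without overlap, and for Birc5 and Bub1 the mouse 44 array stood alone below or above the other 3. Ccna2 (9.43 and 9.75 in KO vehicle against 9.51 and 9.65 in WT vehicle) and Ccnb2 (10.23 and 10.38 against 10.34 and 10.26) differed by 0.01 each.

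Array medians differed between these groups by -0.13, so a change of scaling shifts all genes alike. With each array centred on its median the S-phase median under vehicle was -0.07 (6 of 24 higher) and the mitotic median was 0.14 (15 of 18 higher), while the median of all probe sets was 0.16. Set against the all-probe-set median, the S-phase median was -0.23 and the mitotic median -0.02, and centring cannot change these distances. Directions of single genes near 0 in this comparison therefore depend on the scaling. Without both arrays of mouse 46 the medians were -0.21 for S phase and 0.08 for mitosis, and without the mouse 44 array (KO vehicle replicate 2) they were -0.14 and -0.06, with 2 of 24 and 3 of 18 members higher. Without WT vehicle replicate 1 (mouse 42) they were -0.26, with 1 of 24 higher, and -0.01.

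Under rosiglitazone both classes were mixed between the genotypes when all arrays were used. Of the S-phase members 10 of 24 were higher in KO rosiglitazone than in WT rosiglitazone, with a median of -0.04, and 12 of 18 mitotic members were higher, with a median of 0.03, against 0.00 over all probe sets. By limma 5 probe sets passed (0.0216%), none of them a member, and no member had an unadjusted p under 0.05, against 4.81% of all probe sets. Tpx2 was the 1 member whose KO rosiglitazone arrays all lay below the WT rosiglitazone arrays, against 4.47% of all probe sets, and no member lay wholly above, against 4.22%. Without the mouse 45 array the S-phase median was -0.18 (3 of 24 higher) and the mitotic median -0.05 (3 of 18), and without mouse 46 they were 0.04 (16 of 24) and 0.07 (15 of 18). On the paired mice the medians were -0.14 (2 of 24) and -0.12 (1 of 18). Whether the genotype difference itself differed between treatments is the difference of responses given above, in which no member passed. Goblet markers were higher in KO rosiglitazone in 9 of 10 (median 1.23, median SE 0.88), with overlapping groups for all. Leaving out WT rosiglitazone replicate 1 gave 7 of 18 mitotic members higher, and leaving out WT rosiglitazone replicate 3 gave 5 of 24 S-phase members. Centring the arrays gave medians of 0.05 for S phase (14 of 24 higher) and 0.12 for mitosis (16 of 18 higher), where the median of all probe sets was 0.09.

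Rfc3 was higher in KO rosiglitazone by 0.23 (SE 0.17), with 7.03, 7.60 and 6.91 against 6.82, 6.94 and 7.09 in WT rosiglitazone, and its groups overlapped. Rrm2, the subunit of ribonucleotide reductase made in S phase, read 9.15, 9.23 and 9.05 against 9.14, 9.53 and 9.32 (-0.19, SE 0.16). E2f1 read 7.24, 7.51 and 7.30 against 7.73, 7.57 and 7.29 (-0.18, SE 0.15), also with overlap. The smallest differences were those of Lig1, the ligase that joins Okazaki fragments, and Mcm3, at 0.01 each (SE 0.12 and 0.14). Lig1 read 7.94, 8.07 and 8.01 in KO rosiglitazone against 7.86, 8.14 and 7.97 in WT rosiglitazone. Mcm3, which was apart under vehicle, read 7.36, 7.70 and 7.63 against 7.43, 7.70 and 7.53.

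Among mitotic genes Tpx2 read 7.51, 7.70 and 7.53 in KO rosiglitazone against 7.74, 7.87 and 7.72 in WT rosiglitazone (-0.19, SE 0.11, adjusted p = 0.999 by limma). Cdk1 read 9.37, 9.58 and 9.70 against 9.29, 9.53 and 9.48 (0.12, SE 0.13). Mki67 read 9.14, 9.46 and 9.32 against 9.10, 9.33 and 9.17 (0.11, SE 0.15). Cdk1 and Mki67 overlapped between the genotypes. Kif23 and Bub1 had the smallest differences (-0.01 and 0.01, SE 0.13 each): Kif23 read 9.09, 9.34 and 8.97 against 9.22, 9.07 and 9.14, and Bub1 read 8.06, 8.24 and 8.20 against 7.98, 8.27 and 8.23.

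**Figure D5:**
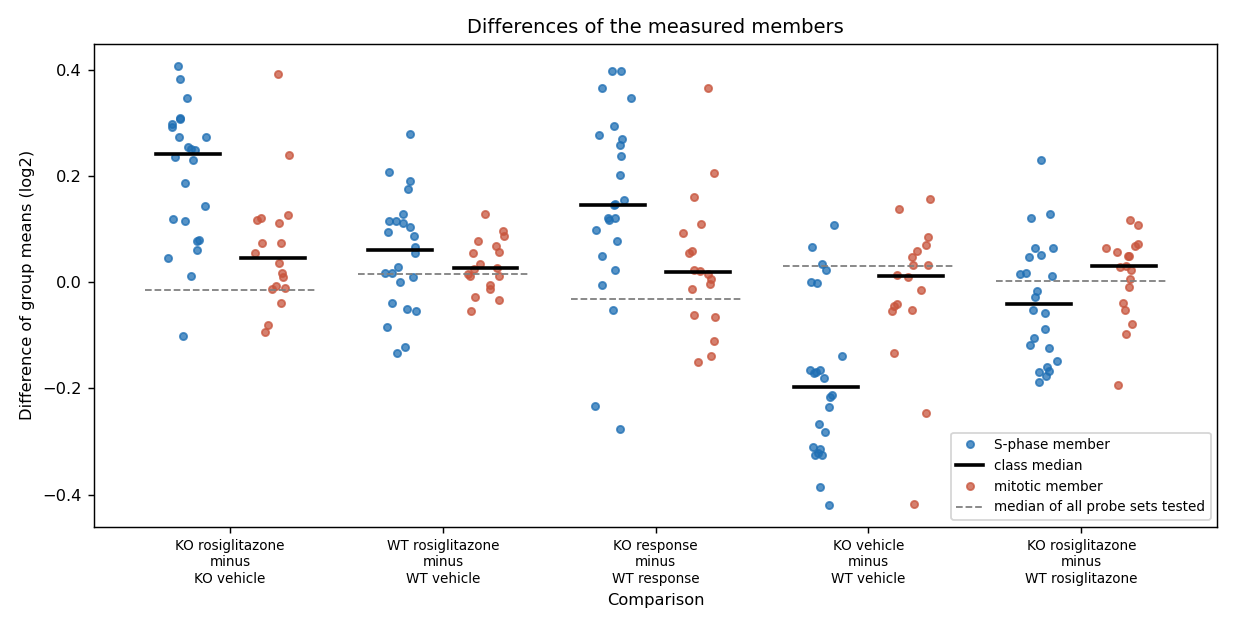
Difference of group means (log2) of each S-phase and each mitotic member in the 5 comparisons, with the class median as a black line and the median of all probe sets tested as a dashed grey line. The S-phase points lie above the mitotic points in median for KO rosiglitazone minus KO vehicle (0.24 and 0.05) and below them for KO vehicle minus WT vehicle (-0.20 and 0.01), and these comparisons share the 2 KO vehicle arrays.

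The members differed in how much they varied within groups. The residual SD had a median of 0.20 for S-phase and 0.15 for mitotic members, against 0.19 over all probe sets. The widest ranges over the 10 arrays were those of Birc5 (1.00), Fen1 (1.00), Cdc6 (0.88) and Uhrf1 (0.87), and the narrowest were those of Top2a (0.25) and Ccnb2 (0.29).

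Other genes of replication and mitosis, on lists that do not hold the members, were counted in the same way. In each drug and genotype comparison a smaller share of the mitotic list than of the mitotic members was higher. Under vehicle 27.7% of the other replication and 34.5% of the other mitotic genes were higher in KO. Among the members these shares were 20.8% for S phase and 55.6% for mitosis, so the classes lay closer together on the other lists. Of 47 other replication genes 35 were higher in KO rosiglitazone than in KO vehicle (median 0.10) and 13 were higher in KO vehicle than in WT vehicle (median -0.09), and none passed the adjusted test. Relative to its mean, this list averaged -0.14, 0.18 and -0.04 in the KO rosiglitazone arrays, highest in that of mouse 45. Within mice 24 of the 47 were higher with the drug in KO mouse 46 (median 0.00) and 29 in KO mouse 44 (median 0.08). Orc1, the largest subunit of the origin recognition complex, had the largest differences of this list, 0.70 (SE 0.22) with the drug in KO and -0.90 (SE 0.24) between genotypes under vehicle. Rpa2, a subunit of the single-strand binding complex, differed by -0.67 (SE 0.24) under vehicle. Chaf1a, a histone chaperone of the replication fork, differed by 0.54 (SE 0.21) with the drug in KO and -0.61 (SE 0.23) under vehicle. Of 58 other mitotic genes 29 were higher with the drug in KO (median 0.00) and 20 were higher in KO vehicle than in WT vehicle (median -0.05), and none passed. Within mice 29 of the 58 were higher with the drug in KO mouse 46 (median -0.00) and 26 in KO mouse 44 (median -0.03). Kif4 (0.33) and Cdca8 (0.32) differed most with the drug in KO, and Melk (-0.64) and Kif2c (-0.38) under vehicle. In WT organoids 33 of 47 replication genes (median 0.06) and 29 of 58 mitotic genes (median 0.01) were higher with the drug. Between genotypes under rosiglitazone 15 of 47 (median -0.05) and 19 of 58 (median -0.05) were higher in KO.

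Genes that act before or against S phase were read from 3 further lists, and none passed the adjusted test in any comparison. Of 15 CDK inhibitors, pocket proteins and partners, 4 were higher in KO rosiglitazone than in KO vehicle (median -0.21), 12 were higher in WT rosiglitazone than in WT vehicle (median 0.08), and none (0 of 15) was higher in KO rosiglitazone than in WT rosiglitazone (median -0.12). Cdkn1c, the inhibitor p57, differed by -0.47 (SE 0.13, adjusted p = 0.824 by limma) in that last comparison, and Cdkn2d, the inhibitor p19, by -0.39 and -0.43 with the drug in KO and in WT. In the mouse 45 array this list averaged -0.29 relative to its mean. Within mice 7 of the 15 were higher with the drug in KO mouse 46 (median -0.03) and 3 in KO mouse 44 (median -0.11). Under vehicle 10 of the 15 were higher in KO (median 0.04), and Cdkn1a, the inhibitor p21, differed by 0.35 (SE 0.33). Of 12 p53 targets and partners 2 were higher with the drug in KO (median -0.16) and 4 with the drug in WT (median -0.03), 7 were higher in KO under vehicle (median 0.03) and 5 under rosiglitazone (median -0.04). The p53 list averaged 0.01, -0.24 and 0.11 in the KO rosiglitazone arrays, lowest in that of mouse 45. Within mice 7 of the 12 were higher with the drug in KO mouse 46 (median 0.02) and 4 in KO mouse 44 (median -0.13). Sesn1, a stress-response gene, was higher in KO by 0.54 (SE 0.16) under vehicle and by 0.49 (SE 0.13) under rosiglitazone. Of 15 genes of the G1 phase 11 were higher with the drug in KO (median 0.08) and 7 in WT (median -0.05), and 4 were higher in KO under vehicle (median -0.08) and 8 under rosiglitazone (median 0.00). Cdk6, a kinase of G1, had the largest of these differences, 1.26 (SE 0.61) under vehicle. Within mice 6 of the 15 G1 genes were higher with the drug in KO mouse 46 (median -0.03) and 11 in KO mouse 44 (median 0.06).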

How the data were processed

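RNA of 10 organoid samples was hybridised to Affymetrix whole-transcript arrays. The deposited values are on the log2 scale, 35556 probe sets per array, and were made by the authors with RMA, per the submitters' processing notes. The RMA version and chip definition are not given in the sources used here. Array medians ran from 3.54 to 3.72, so the arrays did not share 1 distribution. The platform table listed 23099 probe sets, which were tested, and 12457 were left out. Of those tested, 21218 carry a single gene symbol. Arrays have no count depth, so their number limits the precision.

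Differences were tested with limma 3.58.1 (statmod 1.5.0, R 4.3.3): a mean per group over all 10 arrays, eBayes (6 residual and 4.39 prior degrees of freedom), two-sided, with Benjamini-Hochberg adjustment over the 23099 probe sets and a threshold of 0.05. The main fit had no term for the mouse and treated the arrays of a mouse as independent. The SEs and p given from it therefore leave out the pairing (correlation 0.438 in the random mouse block). The fit was run on simulated data with independent noise and no effect of the mouse, which leaves the pairing of arrays unchecked. Motifs and figures used Python 3.11.15, pandas 2.3.3 and matplotlib 3.10.9. The members, classes and other lists were chosen with earlier results of these data known. As no member passed, values per array are given for the 3 largest and 2 smallest differences per class and comparison. The other cell cycle lists are named by up to 2 genes of the largest difference in the comparisons described. Cell type markers are given by list, without gene names.

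The donor mouse pairs arrays, per the labels. In a pairing check the difference between KO mice 44 and 46 correlated across probe sets between treatments at r = 0.487, that between WT mice 42 and 47 at r = 0.44, and 8 of 8 arrays correlated best with their own mouse. Replicate numbers in titles mark the same mouse for 1 of 4 shared numbers. Alternatives were the mouse or title number as a block, the paired mice only, the groups compared only, array centring, repeated quantile normalization, brighter probe sets, mean of a gene's probe sets, eBayes trend, and leaving out each array or, chosen after seeing the data, mouse 46.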

Additional observations from a re-analysis of the deposited data

Results flagged for a closer look

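The drug differences within mice had opposite signs in the 2 genotypes for 4 members, with both KO mice on one side of 0 and both WT mice on the other. By limma the difference of responses over all arrays had an adjusted p of 1.00 for each. With the mouse as a fixed block, or on the paired mice, it called 0 members. Rfc3 differed by 0.03 and 0.10 in KO mice 46 and 44 and by -0.11 and -0.01 in WT mice 42 and 47, with a difference of responses over all arrays of 0.40 (SE 0.28). Ccne1 differed by 0.17 and 0.14 in the KO mice and by -0.06 and -0.11 in the WT mice, with a difference of responses of 0.36 (SE 0.27). Bub1 differed by -0.02 and -0.22 in the KO mice and by 0.14 and 0.18 in the WT mice, with a difference of responses of -0.15 (SE 0.21). Cenpe differed by -0.16 and -0.07 in the KO mice and by 0.06 and 0.03 in the WT mice, while its difference of responses over all arrays was 0.0158 (SE 0.21). The arrays of mice 45 and 48, which have no vehicle partner, were its highest and its lowest of the 10. Of all 23099 probe sets 1342 had the pattern of Rfc3 and Ccne1 and 1388 that of Bub1 and Cenpe. Each is a larger share than 2 of 42 members, so the members showed neither pattern more often than all probe sets.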

How the results depend on the processing

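No member was called in any comparison under any alternative (0 in all), and 447 of 483 recomputed summary values stayed within 1 pooled SD or 1.5 times of the main value. These 483 include the counts of members called, which were 0 throughout. The pooled SD was 0.14 for S phase and 0.11 for mitosis, wide beside many of the medians. A median could change sign and still count as within the limits, so the 447 are no measure of stable directions. The count of all probe sets called moved most. For KO rosiglitazone minus KO vehicle it was 1 with a replicate block by mouse as a random effect (correlation 0.438), against 0. For KO vehicle minus WT vehicle, against 0, it was 1 with that block, 3 with a replicate block by title number, 6 on the paired mice, 4 on the groups compared only, 2 with centring, 1 with repeated quantile normalization, 1 on brighter probe sets, 2 with gene means and 2 with the eBayes trend, and 0 to 6 with 1 array left out. For KO rosiglitazone minus WT rosiglitazone, against 5, it was 13 with the title number block, 16 on the paired mice, 1 on the groups compared only, 1 with repeated quantile normalization, 9 with gene means, 1 without mouse 46, and 1 to 23 with 1 array left out. The S-phase median of KO rosiglitazone minus KO vehicle, 0.24, was 0.10 with the mouse as a fixed block and 0.10 on the paired mice, and 0.10 to 0.31 with 1 array left out, lowest without mouse 45. The mitotic median of the difference of responses, 0.02, was -0.11 with the fixed mouse block and on the paired mice. Counts of mitotic members higher in that difference were 7 of 18 with the random mouse block and 4 with the fixed block or the paired mice. The mitotic median of KO rosiglitazone minus WT rosiglitazone, 0.03, was -0.12 on the paired mice (1 of 18 higher, and 2 of 24 S-phase members), and that of KO vehicle minus WT vehicle, 0.01, was 0.14 with centring. Without mouse 46 the contrast of S phase minus mitosis was 0.23 for KO rosiglitazone minus KO vehicle and 0.21 for the difference of responses, against 0.14 and 0.12. Without KO vehicle replicate 2 (mouse 44) the same contrasts were 0.08 and 0.06. For the named members, 0 of 1020 alternative values were called, and 914 of the 1020 kept the sign of the main value. The fit on only the groups compared gives no value for the difference of responses, which needs all 4 groups, and the fixed mouse block gives none between genotypes, since a mouse has 1 genotype. Where leaving out an array leaves 1 in a group, that array is assumed to vary like the others. The mean of every measured member lay above the median level, but detection was not tested.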
